A study of Mus musculus with 8 samples.

Results

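The mitochondrial ribosomal protein genes are the nuclear genes, named Mrpl for the large subunit and Mrps for the small subunit, whose products are made in the cytosol, imported and built into the ribosome of the mitochondrion. They were taken as every row of the count table whose symbol begins with Mrpl or Mrps followed by a digit, which gave 78 of 24976 gene symbols, 49 of the large and 29 of the small subunit. The symbol does not always give the place of the protein. Mrps18a and Mrps30 carry a small-subunit symbol but sit in the large subunit, and Mrps36 is now known as a component of the 2-oxoglutarate dehydrogenase complex. By structure the set therefore holds 51 proteins of the large subunit and 26 of the small subunit. Of the 78, 46 have a counterpart in the bacterial ribosome and 31 are found in mitochondrial ribosomes alone.

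The mitochondrial ribosome translates the few messages encoded in mitochondrial DNA, which are core subunits of respiratory chain complexes and of ATP synthase. Its small subunit decodes the message, and its large subunit joins the amino acids and feeds the growing chain through an exit tunnel toward the inner membrane. In T cells, mitochondrial mass and mitochondrial translation increase after activation through the antigen receptor, and mitochondrial translation is known to be needed for full proliferation and effector function.

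Bulk RNA-seq was made of mouse CD8+ T cells after 24 or 48 h in culture with anti-CD3, anti-CD28 and IL2, a mix that activates them. The 4 groups held 2 libraries each. The group labelled dKO carried floxed alleles of both Nr4a1 and Nr4a2 with Cd8Cre, in which Cre is driven in the CD8 lineage, and the WT cells came from littermates. NR4A proteins are nuclear receptors that are induced by antigen receptor signalling. All 8 libraries had been activated in the same way, so no group shows resting cells. Nothing in the labels says whether the 2 libraries of a group came from separate mice, so p-values measure only the spread between these libraries.

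Total counts ran from 5000952 to 21686236, with WT 48 h replicate 2 the deepest, and each member had at least 154 counts in every library. Levels are given in CPM, counts relative to the size of the library, after TMM scaling, an adjustment for differences in library composition. The targeted genes were counted in every library, and neither was lost in the libraries labelled dKO. Nr4a1 stood at 525.8 and 275.8 CPM in WT and at 533 and 506.3 CPM in dKO at 24 h, and at 881 and 778.9 CPM against 634.6 and 669.5 CPM at 48 h. Nr4a2 stood at 59.9 and 49.2 CPM in WT against 142.5 and 135.9 CPM in dKO at 24 h, and at 24.6 and 33.2 CPM against 75.5 and 77.3 CPM at 48 h. Nr4a2 thus lay higher in dKO at both times, while Nr4a1 overlapped between genotypes at 24 h and lay lower in dKO at 48 h. Counts per gene do not show whether a floxed exon is missing, so the groups are called by their labels throughout. The levels of Xist, of Y-linked genes and of cell type markers are given in CPM without TMM scaling. Xist lay between 323 and 805 CPM in the 4 WT libraries and between 0.719 and 1.8 CPM in the 4 libraries labelled dKO. The summed level of Y-linked genes was 1.28 to 1.75 against 131 to 175 CPM. Genotype and the sex of the source therefore cannot be told apart in any comparison of genotypes. Defining CD8 T cell markers summed to 1300 to 1590 CPM in the WT 48 h libraries and to 1960 to 2510 CPM in the other 6. The TMM factors that would divide these sums were 0.84 and 0.88 in the WT 48 h libraries and 0.97 to 1.17 in the other 6. On the TMM scale the gap is therefore smaller and the ranges overlap. No list of markers for B, CD4 or regulatory T, myeloid, NK, red or stromal cells exceeded 12.1 CPM in any library. Lyz2, Ncr1, Hba-a1, Hbb-bs and Col1a2 were at 0 in all 8 libraries.

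The promoters of 3 members that were higher at 48 h in the libraries labelled dKO are shown because they hold whole motifs among those searched. These are an ETS core in Mrpl43 and Mrps18a and an E-box with SP cores in Mrpl2. Mrpl45 and Mrps23, also called higher and ranked with them, held none of the motifs and are not shown. Another stretch separates the starts of Mrpl46 and Mrps11, a divergent pair whose levels moved in opposite directions. Sequences are from RefSeq on GRCm38 (mm10), written 5′ to 3′ along the strand of the gene, in the part of the 250 bases before its start that is free of exons. Capitals mark a motif.
Mrpl2: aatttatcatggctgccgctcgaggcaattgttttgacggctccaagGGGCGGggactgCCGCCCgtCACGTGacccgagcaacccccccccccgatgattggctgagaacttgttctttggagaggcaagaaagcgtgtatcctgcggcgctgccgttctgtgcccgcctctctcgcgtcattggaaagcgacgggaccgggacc
Mrpl43: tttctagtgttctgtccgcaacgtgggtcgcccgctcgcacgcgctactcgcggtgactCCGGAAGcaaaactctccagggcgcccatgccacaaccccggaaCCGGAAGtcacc
Mrps18a: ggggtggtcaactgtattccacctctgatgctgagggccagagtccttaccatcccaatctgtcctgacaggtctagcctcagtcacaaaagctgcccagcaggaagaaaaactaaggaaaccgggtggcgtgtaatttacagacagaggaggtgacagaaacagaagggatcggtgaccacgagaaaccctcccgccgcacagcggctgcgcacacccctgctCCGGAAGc
Mrpl46: gcccctcgccggcccgcgttgcctcatgg
The Mrpl2 stretch (chr17:46646023-46646228, plus strand) holds the letters CACGTG, an E-box of the kind bound by MYC, and GGGCGG, the core bound by SP factors, once on each strand. The Mrpl43 stretch (chr19:45006443-45006557, minus strand) holds 2 copies of CCGGAAG, the core bound by ETS factors such as GABP, which is known for activating nuclear genes of mitochondrial proteins. The Mrps18a stretch (chr17:46110754-46110985, plus strand) holds 1 copy of CCGGAAG close to the start of the gene. The stretch of 29 bases before Mrpl46 (chr7:78783090-78783118, minus strand) lies between the RefSeq start of Mrpl46 and the first annotated base of Mrps11 and holds no whole motif.

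Of the 78 members, 69 had an entry in the RefSeq promoter table, and 6 motifs were searched on both strands of the 250 bases before the start of each. The ETS core CCGGAAG was found in 17 of these 69 promoters, or 24.6%, against 7.05% of all 27025 promoters of the same length. The letters GCATGCGC, bound by NRF1, an activator of genes for mitochondrial proteins, were found in 8, or 11.6%, against 2.32%. For the SP core GGGCGG the shares were 47.8% and 32.9%, and for the E-box CACGTG 7.25% and 6.05%. ATGGCGGC, the core bound by YY1, was found in 1.45% against 1.04%, and CTCGCGAG, bound by BANP, in 2.9% against 0.781%. None of the 6 sets of letters contains another, and a promoter with several motifs was counted once for each. Of the 15 members with a promoter that were called higher at 48 h in dKO, 4 held the ETS core (Mrpl43, Mrpl53, Mrpl58 and Mrps18a) and 2 held the NRF1 letters (Mrpl32 and Mrps18b). Of the 54 other members with a promoter, 13 and 6 did. These matches describe the letters in the window and show no binding.

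Mrpl46 and Mrpl27 stood apart from the other members in level, and the others varied widely. Per kb of transcript, mean levels over the 8 libraries ran from 9.07 CPM per kb for Mrpl48 to 335 CPM per kb for Mrpl20 among the 47 other large-subunit genes, a 37-fold range, with a median of 54.4. Among the 29 small-subunit genes they ran from 10.7 CPM per kb for Mrps25 to 164 CPM per kb for Mrps6, a 15.3-fold range, with a median of 53.9. Mrpl46 stood 25.5 times above the median large-subunit member on this scale. All members together took 0.760% to 0.905% of the counts of a library.

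At 48 h the mitochondrial ribosomal protein genes were higher in the libraries labelled dKO than in WT, in both subunits, and 2 members of the large subunit were lower. Of the 78 genes, 18 rose (23.1%) and 2 fell, Mrpl46 and Mrpl27, by edgeR's quasi-likelihood test at a Benjamini-Hochberg adjusted p of 0.05 over all genes tested. Among all 12742 genes tested, 3.19% were called higher and 8.04% lower. The median log2 fold change was 0.49 over the members and -0.03 over all genes tested. Of the large subunit 12 of 49 rose and 2 fell, with a median of 0.51, and of the small subunit 6 of 29 rose and none fell, with a median of 0.48. In 63 of 78 genes (80.8%) both dKO libraries lay above both WT libraries, against 28.3% of all genes tested, and 2 genes lay wholly below. These genes are reported from bulk samples, in which fewer cells of a type and less RNA per cell cannot be told apart.

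The count of called genes depended on single libraries. WT 48 h replicate 2 was lower than replicate 1 in all 78 members, with a median log2 difference of -0.47 against -0.02 over all genes tested and -0.83 over the cytosolic ribosomal protein genes. The same library was the deepest, and in it all symbols beginning with Rpl or Rps and a digit, mostly cytosolic ribosomal proteins, took 6.37% of counts, against 10.0% in replicate 1 and 10.6% to 12.1% in the other 6. Its differences from replicate 1 increased with transcript length over 12005 genes (r = 0.46, across genes that share both libraries). Among members with transcripts under 1 kb the median difference was -0.59, and among the longer ones it was -0.42. The part of this library in the result was measured by setting dKO against each WT library. Against replicate 1 alone, the mean of dKO was higher in 65 of 78 members with a median of 0.30, and both dKO libraries lay above it in 63 members (80.8%, against 40.1% of all genes). Against replicate 2 alone, dKO was higher in 76 of 78 with a median of 0.74, and both dKO libraries lay above it in 76 members (97.4%, against 43.6% of all genes). The cytosolic ribosomal protein genes, by contrast, had medians of -0.05 and 0.81 in the same 2 comparisons. Members called at 48 h, 20 in all, came to 9 without WT 48 h replicate 2 and to 73 without WT 48 h replicate 1. In the same fits 8.78% and 49.2% of all genes tested were called in either direction, against 11.2% with all 8 libraries, so the 73 stood beside calls in many other genes. Member calls were lost in part without either WT 24 h library and altogether without any 1 of the 4 dKO libraries. The medians stayed at 0.51 to 0.52 in the large and 0.47 to 0.49 in the small subunit. Calls over all genes fell in those fits as well. With only the 48 h groups fitted, 0 members were called higher and 2 lower, and 3.66% of all genes were called. Of the 18 genes that rose, 7 were still called higher without WT 48 h replicate 2. With the trend of each library with transcript length removed, an alternative chosen after seeing the data, the medians of the large and small subunit at 48 h were 0.33 and 0.29, and 5 of the 18 genes were still called higher. Scaling by library size alone, which moved the median of all genes to 0.15, gave 51 members higher and 2 lower. It called 19.9% of all genes and turned the share of higher calls among all called genes from 28.4% to 63.8%.

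**Figure D1:**
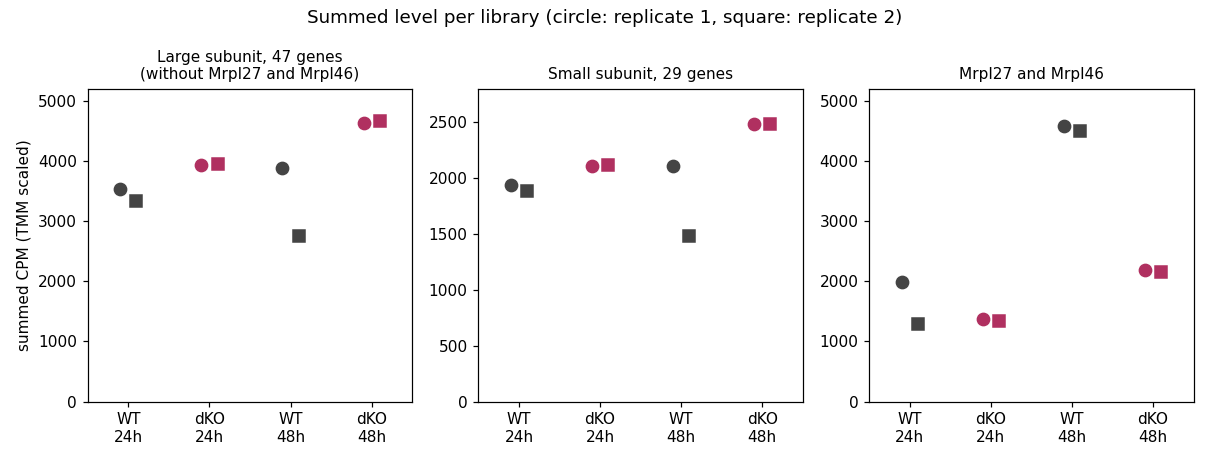
Summed level (CPM after TMM scaling, axis from 0) of 47 large-subunit genes, of 29 small-subunit genes and of Mrpl27 with Mrpl46, by group. Each point is 1 library. Both dKO libraries at 48 h lie above all others for the first 2 sums, WT 48 h replicate 2 lies lowest in them, and both WT 48 h libraries lie highest for the Mrpl27 and Mrpl46 sum.

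Summed over genes, the 2 subunits moved together. The small subunit summed to 1937 and 1884 CPM in WT and to 2110 and 2118 CPM in dKO at 24 h, and to 2107 and 1478 CPM against 2484 and 2479 CPM at 48 h. The 47 large-subunit genes other than Mrpl27 and Mrpl46 summed to 3534 and 3328 CPM in WT and to 3933 and 3942 CPM in dKO at 24 h. At 48 h they summed to 3875 and 2747 CPM against 4635 and 4667 CPM. Both dKO libraries lay above both WT libraries at each time in both sums. The ratio of the large to the small sum stayed between 1.77 and 1.88 in all 8 libraries.

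In the catalytic core of the large subunit, Mrpl2, a neighbour of the peptidyl transferase centre, stood at 55.9 and 48.4 CPM in WT and at 85.0 and 82.8 CPM in dKO at 48 h. The groups did not overlap, and both WT values lay below every 24 h library. Its log2 fold change was 0.69 (SE 0.14, edgeR adjusted p = 0.0162), the smallest p among the members. The core proteins Mrpl3 and Mrpl16 had log2 fold changes of 0.51 and 0.74 and were not called. Mrpl15, which like Mrpl2 has a bacterial counterpart, stood at 139.1 and 97.6 CPM against 202.8 and 192.8 CPM, with a log2 fold change of 0.75 (SE 0.18). Mrpl32, a protein that is cut to its mature form by the m-AAA protease of the inner membrane, stood at 55.2 and 33.4 CPM against 74.6 and 80.7 CPM. Its WT libraries differed widely, yet both lay below dKO, and its log2 fold change was 0.83 (SE 0.21, edgeR adjusted p = 0.0364).

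**Figure D2:**
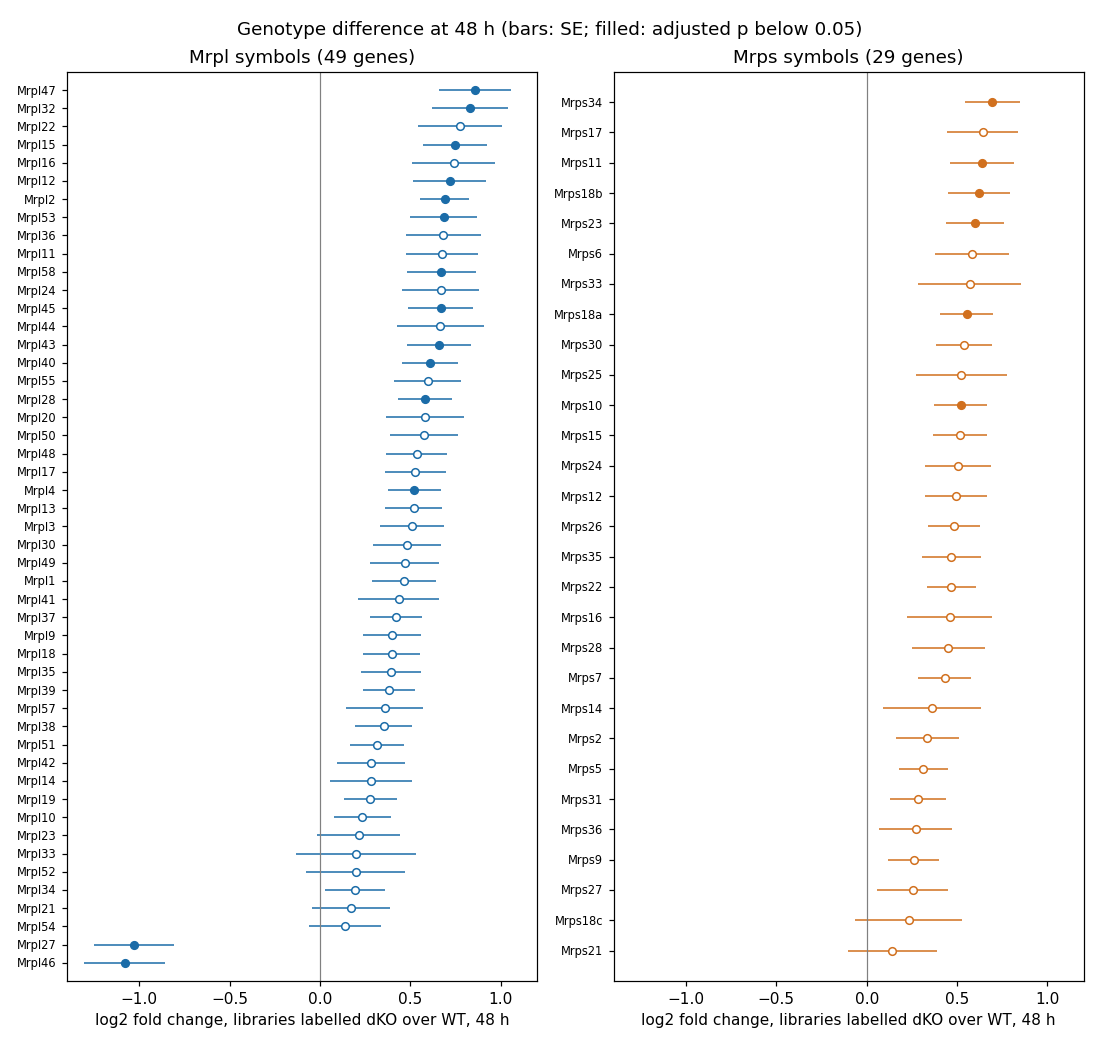
Log2 fold change of the libraries labelled dKO over WT at 48 h for each of the 49 Mrpl and 29 Mrps genes, from edgeR. Points are estimates, bars are 1 SE on each side, and filled points have an adjusted p below 0.05. All but Mrpl27 and Mrpl46 lie above 0.

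Around the exit tunnel, where the new chain leaves the large subunit, 3 of 9 members rose and none fell, with a median of 0.67. Mrpl47, near the mouth of the tunnel, had the highest log2 fold change of all members, 0.86 (SE 0.20, edgeR adjusted p = 0.0252), at 37.9 and 25.3 CPM in WT against 56.0 and 56.9 CPM in dKO. Mrpl45, which anchors the ribosome at the inner membrane, stood at 67.0 and 45.3 CPM against 87.1 and 89.6 CPM, a log2 fold change of 0.67 (SE 0.18). Mrpl4, which lines the tunnel, was the third called member, at 0.52. The groups did not overlap in any of the 3. The other 6 ranged from 0.21 for Mrpl23 to 0.78 for Mrpl22.

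The stalk is the arm of the large subunit that recruits elongation factors, and it was taken here as Mrpl10, Mrpl11 and Mrpl12. Mrpl12, its main component, stood at 236.6 and 155.0 CPM in WT and at 306.2 and 336.4 CPM in dKO, a log2 fold change of 0.72 (SE 0.20, edgeR adjusted p = 0.0490). Mrpl11 had nearly the same log2 fold change, 0.67, with an adjusted p of 0.0583 by edgeR, and was not called. Mrpl10 differed least, with a log2 fold change of 0.24 at 48.7 and 43.9 against 55.4 and 53.3 CPM. The dKO libraries lay above WT in all 3.

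Among the other large-subunit proteins that rose, Mrpl58 is a peptidyl-tRNA hydrolase that became part of the ribosome, and it stood at 43.7 and 30.3 CPM against 53.1 and 63.4 CPM, a log2 fold change of 0.67 (SE 0.19). Mrpl43 stood at 53.0 and 38.5 CPM against 66.4 and 76.5 CPM, a log2 fold change of 0.66 (SE 0.18). Mrpl53 stood at 42.9 and 31.8 CPM against 64.3 and 54.6 CPM, a log2 fold change of 0.69 (SE 0.19). In each of these 3 the lower WT value was that of replicate 2. Mrpl28 and Mrpl40 were the remaining called members, at 0.58 and 0.61. Adjusted p-values of these 5 ran from 0.0354 to 0.0494 by edgeR, near the threshold.

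In the small subunit, Mrps34, which stabilises the particle, stood at 79.3 and 61.4 CPM in WT and at 115.2 and 111.6 CPM in dKO at 48 h. Its log2 fold change was 0.70 (SE 0.15, edgeR adjusted p = 0.0219), and at 24 h it was -0.01. Mrps11 stood at 42.5 and 31.1 CPM against 53.9 and 59.5 CPM, a log2 fold change of 0.64 (SE 0.18). The groups did not overlap in either gene. Mrps18b, Mrps23, Mrps18a and Mrps10 also rose, by 0.62, 0.60, 0.55 and 0.52. Of the 3 genes for proteins of the decoding centre and message channel, Mrps12, Mrps24 and Mrps5, none was called by edgeR or DESeq2, with log2 fold changes of 0.49, 0.51 and 0.31 and all 3 at an unadjusted p below 0.05. Mrps6, with the highest level per kb in the small subunit, and Mrps25, with the lowest per kb, had log2 fold changes of 0.58 and 0.52. Neither was called. By CPM not divided by length, the lowest small-subunit member was Mrps27.

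The 3 paralogs of bacterial protein S18 take different places in the ribosome. Mrps18c, the direct counterpart, stood at 82.2 and 41.8 CPM in WT against 73.4 and 70.2 CPM in dKO, so its groups overlapped, and its log2 fold change was 0.23 (SE 0.30). Mrps18b, at another site of the small subunit, stood at 92.3 and 67.0 CPM against 123.4 and 120.1 CPM. Mrps18a, in the large subunit, stood at 68.0 and 55.6 CPM against 88.0 and 92.5 CPM. The groups did not overlap in the last 2, and whether the paralogs differ was not tested. Mrps30, also of the large subunit, had a log2 fold change of 0.54 and an adjusted p of 0.0525 by edgeR. Mrps36, of the 2-oxoglutarate dehydrogenase complex, had a log2 fold change of 0.27 with overlapping groups. Of the 46 members with a bacterial counterpart 9 rose (19.6%) and 1 fell, with a median of 0.50. Of the 31 found in mitochondria alone 9 rose (29%) and 1 fell, with a median of 0.48, and the difference between the classes was not tested.

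Mrpl46 and Mrpl27, both proteins of the central protuberance at the interface of the subunits, went against the rest. Mrpl46 stood at 3011 and 2924 CPM in WT and at 1416 and 1392 CPM in dKO at 48 h, and Mrpl27 at 1573 and 1569 against 774 and 764 CPM. The groups were far apart and their replicates close, and the log2 fold changes were -1.08 (SE 0.22, edgeR adjusted p = 0.0174) and -1.03 (SE 0.22, edgeR adjusted p = 0.0197). At 24 h Mrpl46 stood at 1277 and 837 CPM against 879 and 849 CPM, and Mrpl27 at 715 and 449 against 486 and 486 CPM, so that only WT 24 h replicate 1 stood apart. The other 6 proteins of the central protuberance did not share this course, with Mrpl40 called higher and none of the 6 below 0.

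The ratio of Mrpl46 to Mrpl27 stayed between 1.75 and 1.92 in all libraries while each varied more than 3-fold. Their log2 levels had r = 0.9991 over the 8 libraries, and the next member had r = 0.46 with Mrpl46. The 2 genes took 18.1% to 51.5% of all counts of the members. Likewise 294 other genes of the 12742 tested, of which Mrpl27 was the single member, had r of at least 0.98 with Mrpl46 over the same 8 libraries, and 292 of them had r of at least 0.9 over the 6 libraries other than WT 48 h. Together with Mrpl46 these genes took 8.68% to 9.13% of counts in WT 24 h replicate 2 and both dKO 24 h libraries, 12.3% to 12.8% in WT 24 h replicate 1 and both dKO 48 h libraries, and 22.8% and 24.1% in the WT 48 h libraries. Among them, chosen after their values were seen, were Csrp3, a protein of striated muscle, at 5509 and 5322 CPM in WT 48 h, and Tnp2, a nuclear protein of spermatids, at 3884 and 3687 CPM. Spaca3, a protein of the sperm acrosome, stood at 2443 and 2395 CPM there. Csrp3 and Tnp2 thus stood above every member in the WT 48 h libraries, and Spaca3 above every member but Mrpl46. The part of whatever these genes share in the values of Mrpl46 and Mrpl27 was not tested. With the 294 genes and Mrpl46 left out before scaling, 8 members were called higher at 48 h. In that fit 6.77% of all genes were called, against 11.2% in the main fit. Mrpl46 and Mrpl27, the 2 members called lower in the main fit, were among the genes left out, so they could not be called.

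**Figure D3:**
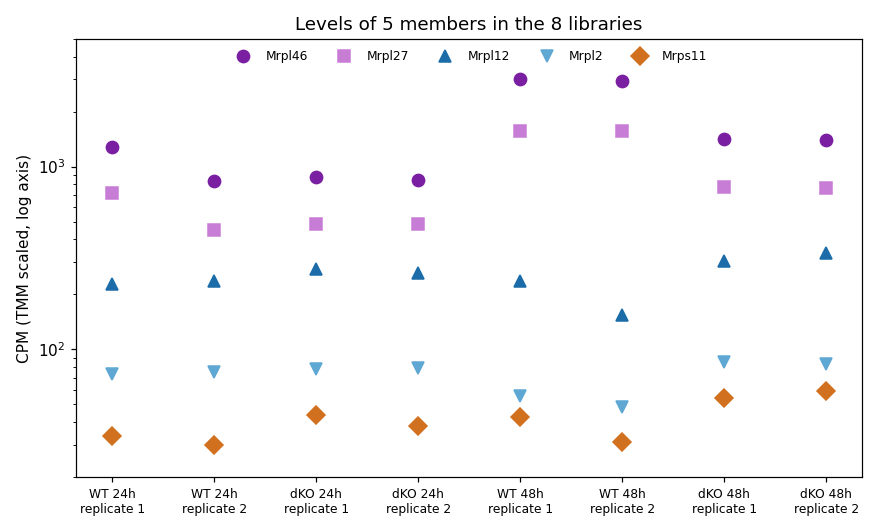
Levels of Mrpl46, Mrpl27, Mrpl12, Mrpl2 and Mrps11 (CPM after TMM scaling, log axis) in each of the 8 libraries, 1 point per gene and library. Mrpl46 and Mrpl27 run in parallel and peak in the WT 48 h libraries, where Mrpl2 is at its lowest.

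The position of Mrpl46 bears on how its reads could be counted. It lies on chromosome 7 from 78775236 to 78783531 on the minus strand (GRCm38/mm10), and 1 of its exons overlaps an exon of Mrps11, which runs from 78783119 to 78792989 on the plus strand. Whether reads were counted by strand is not given in the sources used here, so reads in the overlap cannot be assigned. Mrps11 lay between 29.96 and 59.5 CPM and did not follow Mrpl46. Mrpl27 lies on chromosome 11 from 94653767 to 94660089 on the plus strand and shares exon bases with Eme1 on the other strand, which lay between 13.95 and 21.7 CPM. In all, 33 of the 78 members have an exon that overlaps an exon of another annotated gene, 8 on the same strand and 28 on the other, and their values are uncertain to that extent.

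At 24 h no member was called in either direction, by edgeR's quasi-likelihood test or by DESeq2, and at an unadjusted p below 0.05 edgeR gave 3 higher and 0 lower (3.85% higher, against 3.92% of all genes). Among all genes tested 0.361% were called higher and 0.0706% lower. The members were nonetheless mostly on the higher side, 74 of 78 against 51.2% of all genes, with a median log2 fold change of 0.16 (0.18 in the large and 0.16 in the small subunit). In 47 of 78 (60.3%) both dKO libraries lay above both WT libraries, against 24.3% of all genes. The smallest p-values were those of Mrpl32, Mrpl18 and Mrpl48, followed by Mrps5 and Mrps11. Mrpl32 stood at 41.6 and 37.5 CPM in WT and at 59.0 and 55.4 CPM in dKO, a log2 fold change of 0.53 (SE 0.22, edgeR adjusted p = 0.620). Mrpl18, which helps seat an RNA of the central protuberance, stood at 150.8 and 145.6 CPM against 192.1 and 195.2 CPM, a log2 fold change of 0.39 (SE 0.16, edgeR adjusted p = 0.637). Mrpl48 stood at 37.0 and 32.2 CPM against 45.0 and 45.7 CPM, a log2 fold change of 0.39. In these 3 the replicates were closer to each other than to the other group. Mrps5, of the message channel, and Mrps11 had log2 fold changes of 0.28 and 0.37, with both dKO libraries above WT in each.

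**Figure D4:**
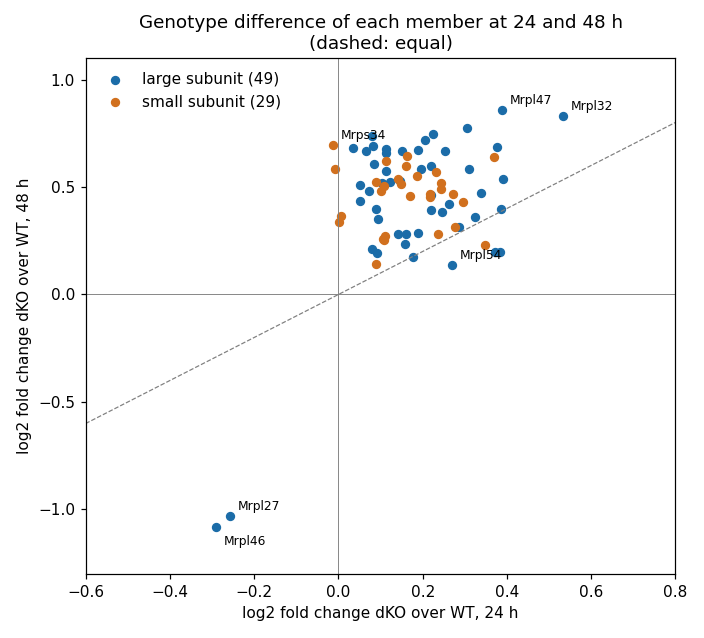
Log2 fold change of dKO over WT at 24 h (horizontal) against that at 48 h (vertical), 1 point per gene, large and small subunit in separate colours. The dashed line marks equal values, and most points lie above it, at a median of 0.16 at 24 h and 0.49 at 48 h.

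The difference was positive at both times in 74 of 78 members and negative at both in 2. Both dKO libraries lay above both WT libraries at 24 h and again at 48 h in 44 members (56.4%), against 11.7% of all genes tested. The absolute difference was larger at 48 h in 73. The interaction of genotype with time, which tests that change, called 0 members by edgeR and by DESeq2, and 0% of all genes tested by edgeR. At an unadjusted p below 0.05 edgeR gave 3 members above 0, Mrps34 at 0.71, Mrpl2 at 0.61 and Mrpl40 at 0.52, and 2 below, Mrpl46 at -0.79 and Mrpl27 at -0.77. These are 3.85% and 2.56% of the members, against 3.42% and 8.94% of all genes. The interaction had a median of 0.30 over the members. Without WT 48 h replicate 1 it called 42 members and 26.1% of all genes, without WT 24 h replicate 1 it called 2 members and 1.06% of all genes, and without any 1 of the other 6 libraries it called 0 members.

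Averaged over both times, 7 members rose and 2 fell by edgeR, against 2.28% of all genes called higher and 5.52% lower. The 7 were Mrpl32, Mrpl47, Mrpl53, Mrpl15, Mrpl48 and Mrpl2 of the large subunit and Mrps11 of the small subunit, with log2 fold changes from 0.39 for Mrpl2 to 0.68 for Mrpl32. Mrpl46 and Mrpl27 were the 2 that fell, by 0.69 and 0.64 on the log2 scale. All 7 were also called higher without WT 48 h replicate 2, when 20 members and 11.9% of all genes were called, against 7.8% of all genes with all 8 libraries. Without WT 48 h replicate 1, 74 members and 42.3% of all genes were called. Leaving out either WT 24 h library lost the call of every higher member, and leaving out any 1 of the dKO libraries lost every member call. Calls over all genes were fewer in those fits as well.

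From 24 to 48 h of activation the median log2 difference of the members in WT was -0.06, and 2 rose and 2 fell by edgeR, against 7.87% and 3.5% of all genes. Mrpl46 and Mrpl27 rose by 1.49 (SE 0.23, edgeR adjusted p = 0.00264) and 1.43 (SE 0.23, edgeR adjusted p = 0.00283) on the log2 scale. Mrpl17 went from 117.8 and 111.8 CPM at 24 h to 87.6 and 63.3 CPM at 48 h and fell by 0.61 (SE 0.17, edgeR adjusted p = 0.0454). Mrpl2 went from 73.4 and 75.3 CPM to 55.9 and 48.4 CPM and fell by 0.52 (SE 0.14, edgeR adjusted p = 0.0378). The 48 h values of both lay below the 24 h values without overlap. Without WT 48 h replicate 2 the medians over the large and small subunit were 0.15 and 0.12, and without WT 48 h replicate 1 they were -0.30 and -0.28, so the direction over all members in WT turned with the library left out. Scaling by library size alone moved the median of all genes to -0.36 and those of the large and small subunit to -0.40 and -0.51. It called 2 members higher and 28 lower, with 26.4% of all genes called against 11.4% in the main fit. Of all genes called in it, 21.5% were higher. More members, and more of all genes, were called without either WT 48 h library. Without any 1 of the other 6 libraries, Mrpl17 and Mrpl2 lost their calls while Mrpl46 and Mrpl27 kept theirs. Fewer of all genes were called in those 6 fits than with all 8 libraries.

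In the libraries labelled dKO, members lay higher at 48 h than at 24 h, without a call. The median was 0.25, and in 64 of 78 both 48 h libraries lay above both 24 h libraries (82.1%, against 32.8% of all genes). No member was called by edgeR, against 1.76% of all genes higher and 1.88% lower, while an unadjusted p below 0.05 gave 12 higher and 1 lower (15.4% higher, against 11.1% of all genes) and DESeq2 called 3 higher, Mrpl46, Mrps33 and Mrpl27. Mrpl1 had the smallest p, at 38.8 and 37.4 CPM at 24 h and 52.7 and 64.6 CPM at 48 h, a log2 difference of 0.62 (SE 0.18, edgeR adjusted p = 0.0932). Mrps33 stood at 44.7 and 51.3 CPM and then at 84.6 and 93.5 CPM. Mrps23 stood at 108.1 and 100.2 CPM and then at 150.1 and 137.6 CPM. In all 3 the times did not overlap. Scaling by library size alone moved the median of all genes to -0.18 and those of the large and small subunit to 0.10 and 0.05. Without either WT 24 h library the medians were 0.27 in the large and 0.23 in the small subunit, and without either WT 48 h library 0.29 and 0.24. More members were called without a WT 48 h library, but calls over all genes rose strongly in those fits as well.

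Genes that build, service or feed the mitochondrial ribosome were read from 5 lists. At 24 h none of their members was called by edgeR or DESeq2, and an unadjusted p below 0.05 gave 1 gene, of the assembly list. At 48 h, when 3.19% of all genes were called higher and 8.04% lower, 1 of 7 tested ribosomal subunits with other symbols rose, Aurkaip1, at 110.7 and 91.8 CPM in WT and 159.9 and 159.9 CPM in dKO, a log2 fold change of 0.66 (SE 0.16, edgeR adjusted p = 0.0311). Of 30 tested assembly and rRNA modification factors 3 rose, namely Rpusd3 and Trub2, which are pseudouridine synthases of mitochondrial RNA, and Ngrn, which works with them. Their log2 fold changes were 0.99, 0.71 and 0.67. Eral1, a GTPase that chaperones the rRNA of the small subunit, fell by 0.70 (SE 0.15, edgeR adjusted p = 0.0220). Of 12 tested translation factors none rose and 1 fell, the initiation factor Mtif3, by 1.04 on the log2 scale (SE 0.17, edgeR adjusted p = 0.0147). Mtif3 stood at 199.5 and 230.1 CPM in WT and at 108.8 and 100.3 CPM in dKO at 48 h, and between 73.2 and 98.4 CPM at 24 h. Mtif3 (r = 0.99) and Eral1 (r = 0.98) were among the 294 genes that followed Mrpl46 over the 8 libraries. Of 17 tested genes for mitochondrial DNA expression and upkeep, Hsd17b10, a subunit of mitochondrial RNase P, rose by 0.79 and Polg, the DNA polymerase, fell by 0.76. Of 20 tested mitochondrial tRNA synthetases 1 rose, Yars2, by 0.66, and none fell. With 0 to 3 calls in a direction per list, several of these counts lie near the shares of all genes. List medians at 48 h were 0.48, 0.37, 0.34, 0.17 and 0.33 in the order given, against 0.49 over the members and -0.03 over all genes tested. The cytosolic ribosomal protein genes had a median of 0.32 at 48 h, with 1 of 78 called higher and 1 lower. No symbol for a gene of the mitochondrial genome was in the rows used here, so the messages that these ribosomes translate were not analysed here.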

How the data were processed

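The deposited table holds raw read counts per gene symbol for 8 libraries, made by the authors. The submitters' processing notes name cutadapt 1.18, Bowtie2 2.2.5 and the build mm10. How reads were counted, on which annotation and strand and whether with molecular identifiers, is not given in the sources used here. A last line without a gene name holds column totals and was left out. Genes were filtered with filterByExpr (minimum count 10), scaled by TMM and tested with edgeR 4.0.16 in R 4.3.3, by a quasi-likelihood model with a mean for each of the 4 groups over all 8 libraries. P-values are two-sided and adjusted over all 12742 genes by Benjamini-Hochberg, and called means an adjusted p below 0.05. DESeq2 1.42.0, other scalings and filters, a replicate block and leaving out each library were alternatives. Removal of a trend with transcript length and of the genes that follow Mrpl46 were added after the data were seen. Levels per kb use the GENCODE vM21 transcript with the longest coding sequence.

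All 78 members passed the filter. A count of 0 allows up to 3 counts, which is 0.138 to 0.6 CPM here without TMM scaling, and such limits cover counting error only. Named in each comparison were up to 10 called members per direction with the largest log2 fold change and groups that did not overlap. Where fewer than 5 were called, the 5 smallest p-values were named. Members of fixed roles and those with the highest and lowest level per kb were named as well. The members and lists were chosen with earlier results of these data known.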

Additional observations from a re-analysis of the deposited data

How the results depend on the processing

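Called members were counted again under each alternative. At 48 h the 20 became 53 with library size only, 9 with upper quartile scaling and 39 without a filter. They became 10 with a mean count of at least 50, 2 when only the groups of the comparison were fitted and 8 without the genes that follow Mrpl46. The 2 were Mrpl46 and Mrpl27, both lower, and 0 members were called higher in that fit. Of all genes 19.9%, 10.9%, 12.9%, 10.8%, 3.66% and 6.77% were called in that order, against 11.2% in the main fit. Over both times the 9 became 31, 4, 22, 5, 9 and 2 in the same order. Beside them 10.1%, 8.6%, 9.85%, 9.04%, 7.8% and 4.58% of all genes were called, against 7.8% in the main fit. For time in WT the 4 became 30 with library size only, 0 with its own groups and 1 without the genes that follow Mrpl46. The shares of all genes called were 26.4%, 0.251% and 7.85%, against 11.4% in the main fit. Mrpl46 and Mrpl27 were themselves left out with the genes that follow Mrpl46. For time in dKO the 0 became 3 with DESeq2, 5 without a filter and 42 with its own groups. Here 2.58%, 7.18% and 37.3% of all genes were called, against 3.63% in the main fit, so the 42 stood beside calls in many other genes. Leaving out 1 library gave 0 to 1 members at 24 h, 0 to 73 at 48 h, 0 to 74 over both times, 0 to 42 for the interaction, 2 to 32 for time in WT and 0 to 31 for time in dKO. Calls over all genes also varied widely between those fits. With 2 libraries a group, a lone sample is assumed to vary like the other groups. With the length trend removed 14 members and 9.65% of all genes were called at 48 h. Of the 14 members 12 were higher, and these 12 held 5 of the 18 genes first called higher. Replicate numbers did not pair the libraries, since the correlations of replicate differences ran from -0.08 to 0.17 and no source links them. A replicate block gave 14 called members at 48 h and 8 over both times. Of all genes 10.1% and 7.36% were called there, against 11.2% and 7.8% in the main fit. Among all called genes, library size only moved the share called higher from 29.3% to 52.7% over both times, from 69.2% to 21.5% for time in WT and from 48.4% to 19.4% for time in dKO, where DESeq2 gave 62.5%. Of 1159 values of named members under alternatives, 880 kept their direction and call, 222 lost the call, 57 gained one and 0 reversed. Members that were not called had no call to lose, so all 222 fell on named results called in the main fit. Among named members called higher at 48 h, Mrpl58 kept its call in the fewest alternatives, 4 of 18. Mrps34 and Mrpl2 kept theirs in the most, 12 of 18. The cause was not tested, apart from fewer samples or genes where those were left out.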
